A study of Mus musculus with 9 samples.

Results

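Retinoic acid synthesis, transport and response was followed through 9 genes of the 54532 in a gene count table of cultured mouse adipose-derived stem cells (ASCs). The genes were taken by name: Aldh1a1, Aldh1a2, Aldh1a3, Rbp4, Stra6, Crabp1, Crabp2, Cyp26b1 and Rarb. ASCs of C57BL/6 mice came from subcutaneous (Sub-ASCs), abdominal (Ab-ASCs) and perivascular adipose tissue (PVASCs), and mRNA of 3 libraries per group was sequenced. No treatment is named for any group. All groups shared the same isolation by collagenase and Dispase, for which no sort for a cell type is described, and the same α-MEM medium with fetal bovine serum, leukemia inhibitory factor and FGF, and were harvested within a common range of passages. Surface staining for Sca1, CD90, CD105, CD45 and CD31 is described as a flow cytometry readout of PVASCs, not as a sort. The sex and age of the mice, and whether libraries of a group came from separate animals or cultures, are not given in the sources used here, so p-values measure the spread between these libraries, which may be technical.

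Retinoic acid is made from vitamin A. Retinol circulates bound to retinol-binding protein (Rbp4), can enter cells through the membrane receptor Stra6, and is oxidised to retinaldehyde and then irreversibly to retinoic acid by the retinaldehyde dehydrogenases Aldh1a1, Aldh1a2 and Aldh1a3. Inside the cell, retinoic acid is bound by Crabp1 and Crabp2, is degraded by Cyp26 enzymes such as Cyp26b1, and acts by binding retinoic acid receptors, of which Rarb is itself a classical target gene. In adipose tissue the pathway is known for restraining adipogenesis and for the adipokine role of Rbp4, and Aldh1a2 is also known as a gene of embryonic and adult mesothelium.

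The genes lie on mouse build GRCm38 as listed in the table. Aldh1a1 (ENSMUSG00000053279) is at chr19:20492715-20643462 on the plus strand, Aldh1a2 (ENSMUSG00000013584) at chr9:71215789-71296243 on the plus strand, and Aldh1a3 (ENSMUSG00000015134) at chr7:66390890-66427517 on the minus strand. Rbp4 (ENSMUSG00000024990) is at chr19:38116620-38125321 on the minus strand, Stra6 (ENSMUSG00000032327) at chr9:58063788-58153996 on the plus strand, Crabp1 (ENSMUSG00000032291) at chr9:54764748-54773110 on the plus strand, and Crabp2 (ENSMUSG00000004885) at chr3:87948666-87953376 on the plus strand. Cyp26b1 (ENSMUSG00000063415) is at chr6:84571414-84593908 and Rarb (ENSMUSG00000017491) at chr14:16430839-16819156, both on the minus strand. All are protein-coding genes. 7 of the 9 had the same start and end in GENCODE M21, and Aldh1a1 and Rbp4 differed there.

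Retinoic acid receptors bind DNA as dimers with retinoid X receptors at direct repeats of a hexamer. The promoter windows of RefSeq, each of 300 bases around a start site on GRCm38.p6, were searched on both strands for 2 hexamers in the same direction with a spacer of 5 bases. The hexamer could be AGGTCA, or a variant with AGTTCA as its letters, or GGGTCA instead of these, and GGTTCA was also allowed. 7 of the 9 genes had windows, 12 in all, and Aldh1a3 and Crabp2 had none. The repeat was found in 1 of the 7, Rarb, and in 1 of 48 other retinoid pathway genes with windows, Cyp26a1, compared with 32 of all 32851 windows (0.0974%) and 31 of 27025 genes (0.115%). Rarb and Cyp26a1 were the only listed genes with the repeat, so both stretches are printed here. Rarb is a receptor gene among the 9, whereas Cyp26a1 had almost no reads. Capitals mark the repeat, and the case is otherwise lower.
Rarb: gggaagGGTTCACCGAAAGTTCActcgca
Cyp26a1: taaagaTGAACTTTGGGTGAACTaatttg
The Rarb stretch is chr14:16575507-16575535 on the minus strand, where the repeat runs from 53 to 37 bases before a start site of the gene, and all 29 bases lie within an annotated exon of GENCODE M21. The Cyp26a1 stretch is chr19:37697770-37697798, written on the plus strand of the gene, and its repeat lies on the opposite strand, from 32 to 16 bases before the start site. With a spacer of 1 or of 2 bases, which 0.222% and 0.268% of all windows hold, no window of the 7 genes had a repeat. These matches describe the letters of the windows, and binding was not measured.

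Library totals were 23781019 to 26872579 reads for Sub-ASCs, 20524173 to 23832828 for Ab-ASCs and 27136829 to 29881036 for PVASCs. Every pair of libraries within a group differed by more than counting noise, and Ab-ASC replicate 1 stood apart from the other Ab-ASC libraries, at a chi-square of 31.3 and 19.6 per gene against 4.38 for the pair without it. Stromal markers were present in all groups, and none of the 12 was at or under 3 reads in every library of a group, but their summed level was 28200 to 28900 CPM (counts scaled to library size) in Sub-ASCs, 7970 to 8170 in Ab-ASCs and 5860 to 6040 in PVASCs. In both PVASCs and Ab-ASCs, 10 of the 12 were lower and 2 higher than in Sub-ASCs. Of all genes tested, 35.7% were lower and 34.7% higher in PVASCs, and 38.3% were lower and 37.0% higher in Ab-ASCs. The collagen gene Col3a1 (9100, 1210 and 1110 CPM in Sub-ASCs, Ab-ASCs and PVASCs) and the proteoglycan gene Dcn (8850, 362 and 112 CPM), named after their values were seen, made up most of the Sub-ASC sum. Other members went other ways, with Col1a1 highest in Ab-ASCs (5070 CPM, and 3400 in Sub-ASCs) and Thy1 and Eng highest in PVASCs (882 and 328 CPM). The 10 adipocyte markers summed to 232 to 245 CPM in Sub-ASCs, 50.4 to 54.8 in Ab-ASCs and 78.2 to 83.8 in PVASCs. Adipoq, the defining adipokine, was at no more than 3 reads in any Ab-ASC or PVASC library. The 9 endothelial markers summed to 806 to 808 CPM in PVASCs, with 197 to 213 in Sub-ASCs and 69.2 to 71.0 in Ab-ASCs, and the 8 macrophage and blood markers to between 265 and 410 CPM in all libraries. Most of that last sum was Lyz2, at 162 CPM in Sub-ASCs, 271 in Ab-ASCs and 249 in PVASCs, and 6 of the 8 were lower and 2 higher than in Sub-ASCs in each of the other groups. These counts can be read against the same shares of all genes as those of the stromal markers.

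The 9 genes were spread over the 3 depots rather than sharing a single high depot. On mean CPM, 4 were highest in Sub-ASCs (Aldh1a1, Rbp4, Crabp1 and Cyp26b1), 3 in Ab-ASCs (Aldh1a2, Aldh1a3 and Crabp2) and 2 in PVASCs (Rarb and Stra6). Differences were tested with edgeR's quasi-likelihood test over all 16526 genes with enough reads, which included all 9, and p-values were adjusted by Benjamini-Hochberg and called under 0.05. Against Sub-ASCs, PVASCs differed in 9 of the 9 genes, 5 higher and 4 lower, where 70.4% of all genes tested passed (34.7% higher, 35.7% lower). Between PVASCs and Ab-ASCs, 8 of 9 passed, 4 higher and 4 lower in PVASCs, against 56.9% of all genes (24.7% higher, 32.1% lower). The balance over all genes in this last comparison turned with only these 2 groups fitted, from 4088 higher and 5308 lower to 4305 higher and 4149 lower. Ab-ASCs differed from Sub-ASCs in 9 of 9, 5 higher and 4 lower, against 75.3% of all genes (37.0% higher, 38.3% lower). Since most genes differed between these depots, passing the threshold set the 9 genes little apart. How many of all genes had groups without overlapping libraries was not counted, so the lack of overlap described below does not set them apart either. A log2 difference of 1 or more in either direction was met as well by 8 of the 9 for the perivascular against the subcutaneous cells (32.2% of all genes), by 6 for the perivascular against the abdominal cells (15.4%) and by 9 for the abdominal against the subcutaneous cells (37.8%). The median absolute log2 fold change of the 9 was 2.32, 1.51 and 2.24 in these comparisons, and that of all genes 0.59, 0.38 and 0.75. The 3 comparisons share libraries and are not independent of each other.

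**Figure D1:**
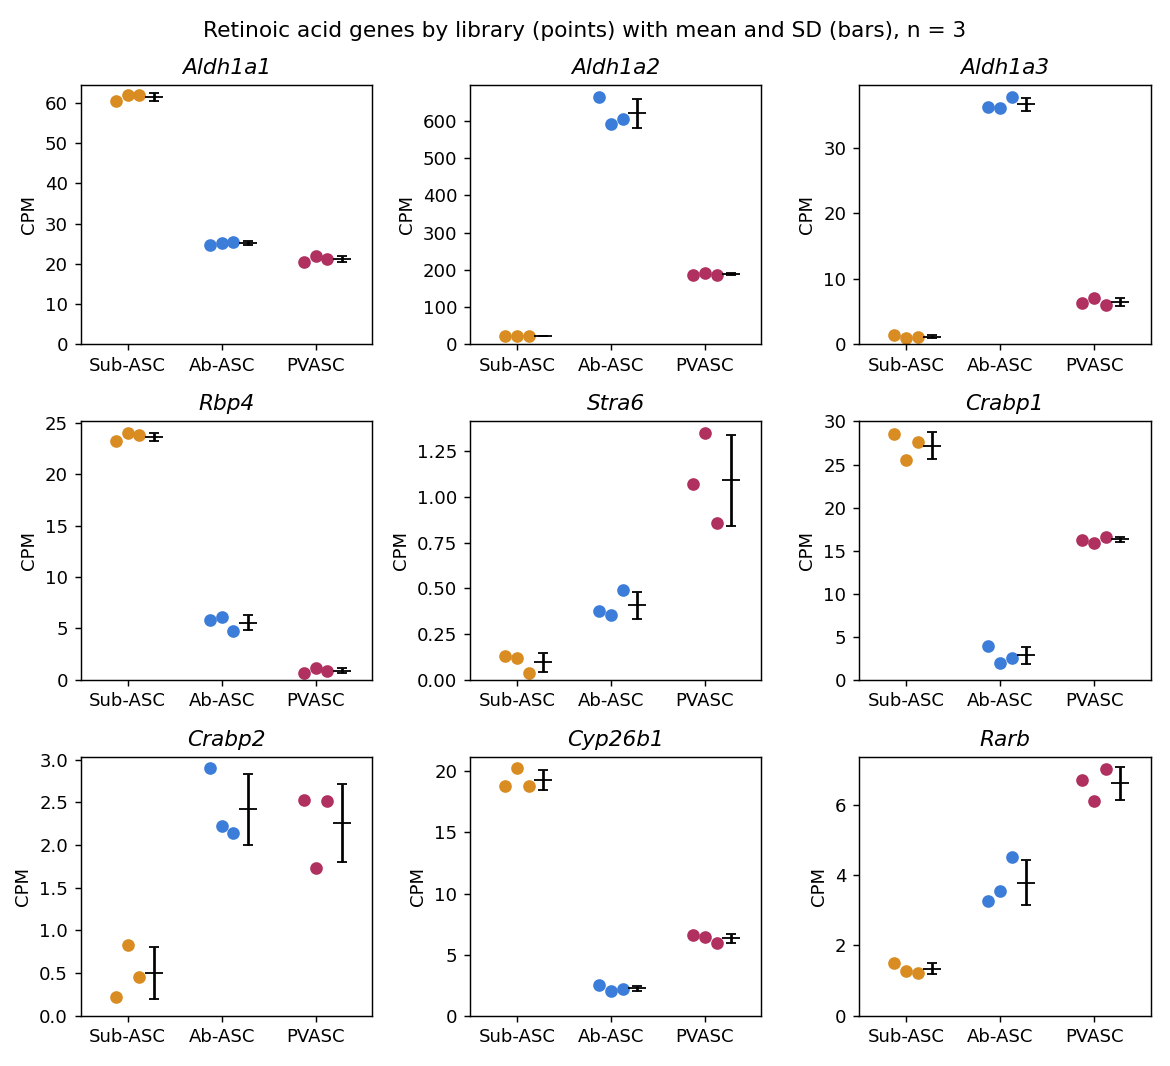
CPM of the 9 genes (vertical axes, from 0, with a scale for each gene) in the 3 libraries of each group (points), with the mean and SD over the 3 libraries (bars). Libraries of a group lie close together and the groups lie apart for every gene except Crabp2, whose Ab-ASC and PVASC libraries overlap, and the high group changes from gene to gene. The share of all genes tested whose groups lie apart was not counted, and most genes tested differed between depots.

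Aldh1a2, the retinaldehyde dehydrogenase that makes most retinoic acid in the embryo, was per length the most abundant of the 9 genes in Ab-ASCs and PVASCs. It had 489, 522 and 538 reads in the Sub-ASC libraries, 12385, 13320 and 13611 in the Ab-ASC libraries, and 6128, 5665 and 5822 in the PVASC libraries. Scaled to library size with TMM factors, these were 20.7 ± 0.276, 621 ± 38.5 and 188 ± 3.48 CPM (mean ± SD, n = 3). Ab-ASCs were high, PVASCs intermediate and Sub-ASCs low, with no overlap between libraries of different groups. Aldh1a2 was 30.0-fold higher in Ab-ASCs than in Sub-ASCs (log2 fold change 4.91 ± 0.06 SE, adjusted p = 1.51e-14) and 9.10-fold above Sub-ASCs in PVASCs (3.19 ± 0.06, adjusted p = 2.28e-13). PVASCs were 3.30-fold lower than Ab-ASCs (-1.72 ± 0.05, adjusted p = 1.64e-10).

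Aldh1a3, another enzyme of the same family, had the same order at much lower levels. Reads were 32, 24 and 29 in Sub-ASC, 674, 813 and 849 in Ab-ASC and 203, 210 and 190 in PVASC libraries, or 1.14 ± 0.217, 36.7 ± 0.977 and 6.45 ± 0.579 CPM. Its libraries did not overlap between groups. The log2 fold change was 5.01 ± 0.12 for Ab-ASCs against Sub-ASCs (adjusted p = 2.32e-12), 2.50 ± 0.14 for PVASCs against Sub-ASCs (adjusted p = 5.39e-09) and -2.51 ± 0.09 for PVASCs against Ab-ASCs (adjusted p = 7.45e-10).

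Aldh1a1, the family member best known from adult adipose tissue, ran the other way and was highest in Sub-ASCs. Reads were 1409, 1580 and 1627 in Sub-ASC, 458, 567 and 573 in Ab-ASC and 668, 643 and 666 in PVASC libraries, which gave 61.5 ± 0.911, 25.1 ± 0.485 and 21.1 ± 0.688 CPM. Sub-ASC libraries stood clear of both other groups, which lay next to each other without overlapping. Against Sub-ASCs, the log2 fold change was -1.29 ± 0.06 in Ab-ASCs (adjusted p = 5.83e-10) and -1.54 ± 0.06 in PVASCs (adjusted p = 1.01e-10). The step from Ab-ASCs to PVASCs was small, -0.25 ± 0.06 (adjusted p = 0.00329), and its call was lost when only these 2 groups were fitted (-0.17, adjusted p = 0.0531). Aldh1a7, a near-identical neighbour of Aldh1a1 that could share reads with it, had 22 to 26 reads in Sub-ASC, 8 to 9 in Ab-ASC and 53 to 67 in PVASC libraries. Reads that fit both genes were not measured here, so Aldh1a1 and Aldh1a7 values are uncertain by an unknown amount. Genes annotated on the opposite strand within Aldh1a1 and Aldh1a2 each held at most 43 reads over all 9 libraries.

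Levels of the 3 enzymes can be compared with each other only per length, for which FPKM (counts per kilobase of listed gene length, scaled to library size) was calculated. Their summed FPKM was 21.4 ± 0.0384 in Sub-ASCs, 268 ± 8.83 in Ab-ASCs and 97.0 ± 1.58 in PVASCs. Aldh1a1 held 57.1% ± 0.798 of that sum in Sub-ASCs, with Aldh1a2 at 41.8% ± 0.595. In Ab-ASCs, Aldh1a2 held 95.5% ± 0.318 and Aldh1a1 1.78% ± 0.13, and in PVASCs Aldh1a2 held 93.6% ± 0.176 and Aldh1a1 4.82% ± 0.117. Aldh1a3 held 1.13% in Sub-ASCs, 2.77% in Ab-ASCs and 1.57% in PVASCs. The ratio of Aldh1a2 to Aldh1a1 FPKM was thus 0.720 to 0.756 in Sub-ASC, 51.2 to 58.9 in Ab-ASC and 19.1 to 20.0 in PVASC libraries, so that the leading enzyme transcript changed between the subcutaneous depot and both others. These shares are ratios within a library and do not depend on how libraries were scaled. They do depend on the listed lengths, which are 4934 bases for Aldh1a1, 2264 for Aldh1a2 and 4617 for Aldh1a3.

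**Figure D2:**
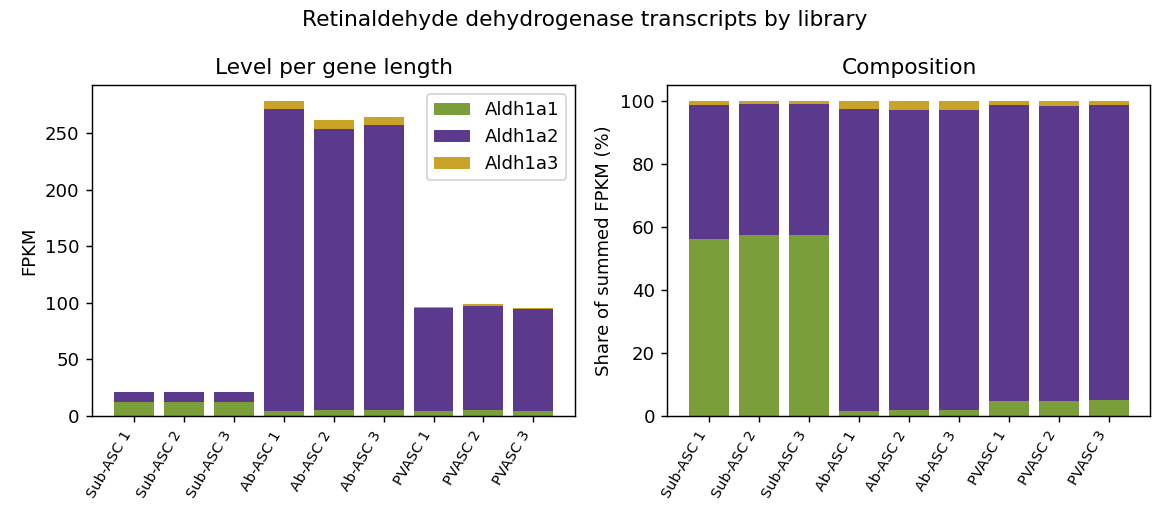
FPKM of Aldh1a1, Aldh1a2 and Aldh1a3 stacked for each of the 9 libraries (left) and as percent of their sum (right). Aldh1a2 makes up 95.2% to 95.8% of the sum in Ab-ASC and 93.4% to 93.8% in PVASC libraries, whereas Aldh1a1 makes up 56.2% to 57.6% in Sub-ASC libraries.

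Markers of other cell types moved with Aldh1a2 and Aldh1a3. The 14 mesothelial markers summed to 8.45 to 9.58 CPM in Sub-ASCs, 135 to 143 in Ab-ASCs and 62.6 to 63.9 in PVASCs. In Sub-ASCs 7 of the 14 were at or under 3 reads in every library (Upk3b, Upk1b, Msln, Lrrn4, Muc16, Bnc1 and Cldn1), in PVASCs only Muc16 and in Ab-ASCs none. Of the 12 with enough reads, 10 were higher in Ab-ASCs than in Sub-ASCs and none lower, where 37.0% of all genes tested were higher. In PVASCs, 10 exceeded their Sub-ASC level and none was lower, where 34.7% of all genes were higher. Against Ab-ASCs, 3 were higher and 9 lower in PVASCs, where 24.7% of all genes were higher and 32.1% lower. The keratins did not share this order throughout, with Krt8 at 0.384, 18.7 and 0.266 CPM and Krt19 at 1.12, 4.39 and 14.7 CPM in Sub-ASCs, Ab-ASCs and PVASCs. The 8 smooth muscle markers, among them Acta2 and Cnn1, had the same order of groups, with sums of 92.9 to 98.1, 4650 to 5740 and 2810 to 2960 CPM. The part of these cells in the Aldh1a2 and Aldh1a3 values was not tested. In bulk libraries fewer cells of a type and less RNA per cell cannot be told apart.

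Rbp4, the plasma carrier of retinol and an adipokine, was a Sub-ASC gene. It had 540, 610 and 624 reads in Sub-ASC, 109, 137 and 107 in Ab-ASC and 22, 35 and 26 in PVASC libraries, with means of 23.6 ± 0.414, 5.57 ± 0.702 and 0.894 ± 0.263 CPM. The groups did not overlap, and Sub-ASCs were 4.25-fold above Ab-ASCs and 26.5-fold above PVASCs. The log2 fold change was -2.09 ± 0.12 for Ab-ASCs against Sub-ASCs (adjusted p = 9.14e-09), -4.73 ± 0.15 for PVASCs against Sub-ASCs (adjusted p = 2.97e-11) and -2.64 ± 0.18 for PVASCs against Ab-ASCs (adjusted p = 1.34e-07). Only 3.95% of all genes tested had a larger absolute log2 fold change between PVASCs and Sub-ASCs. The sum of adipocyte markers was also highest in Sub-ASCs but lower in Ab-ASCs than in PVASCs, whereas that of stromal markers had the order of Rbp4. Among macrophage and blood markers, Cd68 (32.8, 23.0 and 11.6 CPM in Sub-ASCs, Ab-ASCs and PVASCs) and Fcgr1 (6.25, 1.88 and 0.879 CPM) also had the order of Rbp4. Cd14 and Itgam had it too on mean CPM. Lyz2 and Csf1r were instead lowest in Sub-ASCs, as was the sum of this list, and Adgre1 and Ptprc were lowest in Ab-ASCs. The part of these markers in the Rbp4 values was not tested.

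Stra6, the cell surface receptor that takes up retinol from Rbp4, was per length the least abundant of the 9 genes and had the opposite order. Reads were 3, 3 and 1 in Sub-ASC, 7, 8 and 11 in Ab-ASC and 35, 40 and 27 in PVASC libraries, or 0.0949 ± 0.0495, 0.407 ± 0.0727 and 1.09 ± 0.249 CPM. Even the highest group was thus near 1 CPM. With so few reads in Sub-ASCs, folds are given as ratios of summed reads per library size with an exact 95% interval, which covers counting error only. The ratio was 11.7 (5.46 to 29.7) for PVASCs over Sub-ASCs and 4.38 (1.85 to 12.0) for Ab-ASCs over Sub-ASCs. The edgeR test called both differences (adjusted p = 9.54e-06 and 0.00297) and also the step from Ab-ASCs to PVASCs (log2 fold change 1.41 ± 0.33, adjusted p = 0.00304). Ccdc33, which overlaps Stra6 on the opposite strand, had 9 reads in all libraries together.

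The cellular retinoic acid-binding proteins differed from each other in pattern. Crabp1, which is known to lead retinoic acid to degradation, had 664, 649 and 724 reads in Sub-ASC, 74, 45 and 58 in Ab-ASC and 532, 471 and 521 in PVASC libraries. The means were 27.2 ± 1.54, 2.85 ± 1.01 and 16.3 ± 0.304 CPM, with Sub-ASCs high, PVASCs next and Ab-ASCs low, and the libraries of different groups did not overlap. Ab-ASCs were 9.69-fold below Sub-ASCs (log2 fold change -3.28 ± 0.16, adjusted p = 1.30e-09). PVASCs were 5.79-fold above Ab-ASCs (2.53 ± 0.16, adjusted p = 7.88e-08) and 1.67-fold below Sub-ASCs (-0.74 ± 0.12, adjusted p = 0.000157). Without Ab-ASC replicate 1, which had the most Crabp1 reads of its group, the PVASC difference from Ab-ASCs was 2.82 ± 0.13, the largest shift that leaving out this library gave among the 9 genes.

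Crabp2, which is known to carry retinoic acid to its nuclear receptor, was low throughout. It had 5, 21 and 12 reads in Sub-ASC, 54, 50 and 48 in Ab-ASC and 83, 51 and 79 in PVASC libraries, or 0.499 ± 0.307, 2.42 ± 0.416 and 2.26 ± 0.46 CPM. Every Ab-ASC and PVASC library was above every Sub-ASC library, with a log2 fold change of 2.24 ± 0.35 in Ab-ASCs (adjusted p = 8.08e-05) and 2.15 ± 0.34 in PVASCs (adjusted p = 9.73e-05). Ab-ASC and PVASC libraries overlapped, and their difference did not pass the test (-0.09 ± 0.27, adjusted p = 0.806). Which of these groups was higher depended on the scale, since mean FPKM without TMM scaling was 1.71 in Ab-ASCs and 1.87 in PVASCs. Per length, Crabp1 exceeded Crabp2 in every library, by 50.9 to 219 times in Sub-ASCs, 10.6 to 15.2 times in PVASCs and 1.48 to 2.26 times in Ab-ASCs, and the range in Sub-ASCs rests on 5 to 21 reads of Crabp2.

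Cyp26b1, the P450 enzyme that oxidises and clears retinoic acid, had the same order as Crabp1. Reads were 439, 517 and 494 in Sub-ASC, 46, 46 and 49 in Ab-ASC and 216, 191 and 186 in PVASC libraries, with means of 19.3 ± 0.852, 2.23 ± 0.216 and 6.33 ± 0.364 CPM. The 3 groups were well separated. Ab-ASCs were 8.68-fold below Sub-ASCs (log2 fold change -3.12 ± 0.11, adjusted p = 5.94e-11), PVASCs were 3.05-fold below Sub-ASCs (-1.61 ± 0.09, adjusted p = 5.11e-09) and 2.84-fold above Ab-ASCs (1.51 ± 0.12, adjusted p = 5.11e-07). The sum of adipocyte markers had this order of groups too, and its part in the Cyp26b1 and Crabp1 values was not tested.

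Aldh1a2 and Aldh1a3 were highest in Ab-ASCs, where Cyp26b1 was lowest, whereas Aldh1a1 was highest in Sub-ASCs, as Cyp26b1 was. The ratio of the summed Aldh1a FPKM to Cyp26b1 FPKM was 6.06 ± 0.261 in Sub-ASCs, 75.2 ± 3.78 in PVASCs and 691 ± 27.1 in Ab-ASCs, and the ranges of 5.76 to 6.22, 71.5 to 79.1 and 664 to 718 did not overlap. The ratio compares transcripts only, and neither enzyme activity nor retinoic acid was measured. Of the other 2 enzymes of the Cyp26 family, neither had enough reads for a test. Cyp26a1, whose promoter stretch is printed above, had 0 to 8 reads in each of the 9 libraries. Cyp26c1 had 7 to 22 reads in Sub-ASC libraries and no more than 2 in any other, with a ratio of summed reads per library size of 17.1 (95% interval 5.45 to 86.2) for Sub-ASCs over PVASCs and 34.8 (5.90 to 1410) over Ab-ASCs.

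Rarb, the retinoic acid receptor gene whose promoter holds the repeat printed above, was highest in PVASCs. It had 35, 32 and 32 reads in Sub-ASC, 61, 80 and 101 in Ab-ASC and 219, 180 and 221 in PVASC libraries, or 1.33 ± 0.153, 3.78 ± 0.643 and 6.60 ± 0.470 CPM. No PVASC library overlapped an Ab-ASC library and none of these overlapped a Sub-ASC library. The log2 fold change was 2.32 ± 0.16 for PVASCs against Sub-ASCs (adjusted p = 4.42e-08), 1.52 ± 0.18 for Ab-ASCs against Sub-ASCs (adjusted p = 6.23e-06) and 0.80 ± 0.14 for PVASCs against Ab-ASCs (adjusted p = 0.000395). Ab-ASCs, which had the most Aldh1a2 and the least Cyp26b1, lay between the other groups for Rarb, and a link between these levels was not tested. The sum of endothelial markers was also highest in PVASCs, but it was lower in Ab-ASCs than in Sub-ASCs. The part of these markers in the Rarb and Stra6 values was not tested.

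Rarb shares 1793 of its 5265 annotated exon bases (34.1%) with Top2b, a topoisomerase gene on the opposite strand, and whether the counting used strand is not given in the sources used here. Reads of the 2 genes within the shared bases may not have been told apart. Top2b stood at 153 ± 9.98 CPM in Sub-ASCs, 74.6 ± 24.8 in Ab-ASCs and 176 ± 4.44 in PVASCs. Both genes were highest in PVASCs, while Top2b was lowest in Ab-ASCs and Rarb in Sub-ASCs, and the part of Top2b reads in the Rarb values was not tested.

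**Figure D3:**
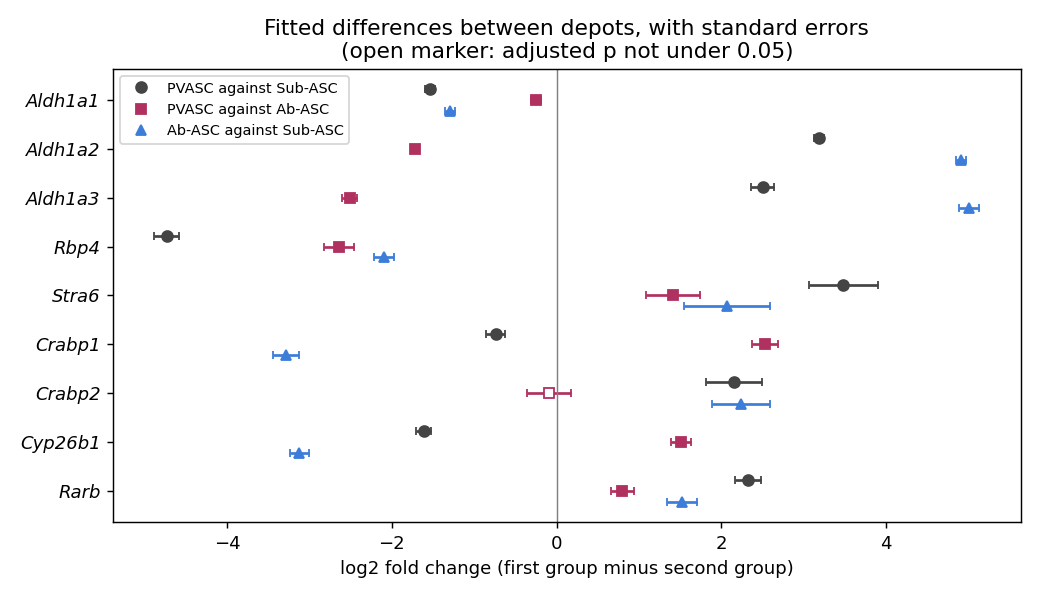
Fitted log2 fold changes of the 9 genes (horizontal axis, first group minus second group) with standard errors for the 3 comparisons, and an open marker where the adjusted p was not under 0.05. Aldh1a2 and Aldh1a3 lie furthest to the right for Ab-ASCs against Sub-ASCs, at 4.91 and 5.01, Rbp4 lies furthest to the left for PVASCs against Sub-ASCs, at -4.73, and only Crabp2 for PVASCs against Ab-ASCs is open. The points of Stra6 rest on at most 3 reads per Sub-ASC library.

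Libraries of a group agreed closely for most of the 9 genes. The coefficient of variation over the 3 libraries of a group had a median of 5.66% in Sub-ASCs (1.34% to 61.6%), 12.6% in Ab-ASCs (1.93% to 35.5%) and 7.12% in PVASCs (1.85% to 29.4%), and the highest values belonged to genes with few reads in that group. Without Ab-ASC replicate 1, no call on the 9 genes changed, and apart from the 2 comparisons of Crabp1 with Ab-ASCs no log2 fold change moved by more than 0.14.

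A further 67 genes of retinoid metabolism, transport, receptors and response were listed by role, and 51 had enough reads. Against Sub-ASCs, PVASCs were higher in 16, lower in 29 and not called in 6, with a median log2 fold change of -0.26 beside -0.01 for all genes tested. Against Ab-ASCs, PVASCs were higher in 17, lower in 15 and not called in 19 (median -0.05 beside -0.06). Ab-ASCs against Sub-ASCs gave 17 higher, 28 lower and 6 not called (median -0.39 beside -0.03). The shares called, 45, 32 and 45 of 51, can be read against 70.4%, 56.9% and 75.3% of all genes.

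**Figure D4:**
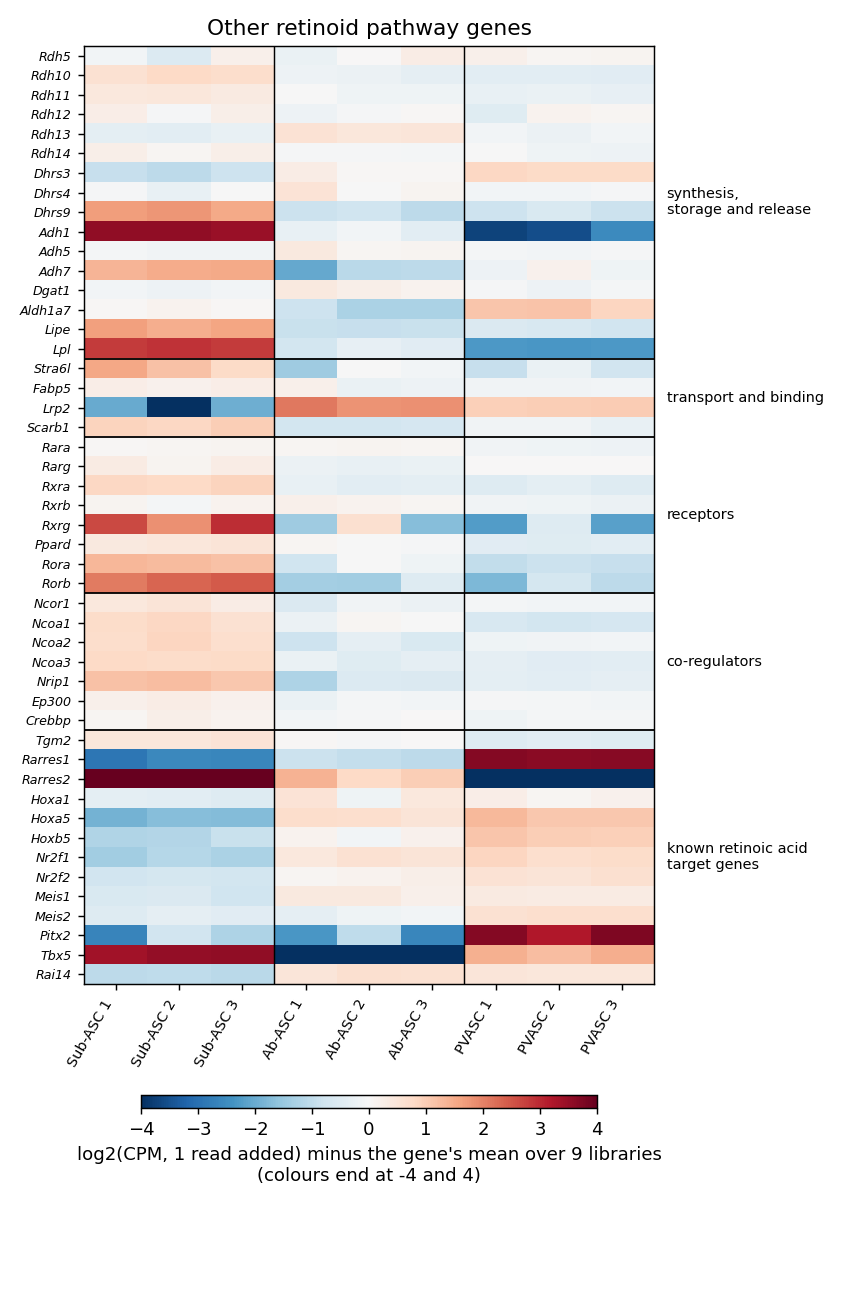
Each row is 1 of 48 tested pathway genes outside the 9, grouped by role, and each column 1 of the 9 libraries. The colour is log2 CPM with 1 read added, minus the mean of the gene over the 9 libraries, with colours ending at -4 and 4. Receptor and co-regulator rows are mostly warm in Sub-ASCs and pale elsewhere, and most rows of known target genes are cool in Sub-ASCs, with Rarres2, Tbx5 and Tgm2 as exceptions.

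Of the 16 tested genes for synthesis, storage and release of retinoids, 3 were higher and 8 lower in PVASCs than in Sub-ASCs, and 5 were higher and 9 lower in Ab-ASCs than in Sub-ASCs. Between PVASCs and Ab-ASCs, 3 were higher, 6 lower and 7 not called. The 11, 14 and 9 genes called of 16 can be read against 70.4%, 75.3% and 56.9% of all genes, which leaves the role little apart from them. Dhrs3, which reduces retinaldehyde back to retinol and is itself induced by retinoic acid, had 19.6 ± 1.5 CPM in Sub-ASCs, 40.8 ± 3.96 in Ab-ASCs and 63.9 ± 1.73 in PVASCs, the order of Rarb. Its log2 fold change was 1.71 ± 0.08 for PVASCs against Sub-ASCs, 0.65 ± 0.08 against Ab-ASCs, and 1.06 ± 0.08 for Ab-ASCs against Sub-ASCs (largest adjusted p = 2.32e-05). Adh1, an alcohol dehydrogenase that oxidises retinol, was at 36.2 ± 1.35 CPM in Sub-ASCs, 2.58 ± 0.289 in Ab-ASCs and 0.32 ± 0.164 in PVASCs, and the log2 fold change of PVASCs against Sub-ASCs was -6.80 ± 0.17 (adjusted p = 2.98e-12). Lpl, the lipoprotein lipase that releases lipids, retinyl esters included, from lipoproteins, fell from 3810 ± 157 CPM in Sub-ASCs to 380 ± 50.1 in Ab-ASCs and 109 ± 1.34 in PVASCs, and is an adipocyte gene as well. Adh5 varied little, with 80.7, 100 and 83.0 CPM. Aldh1a7 differed from Aldh1a1 in order, at 0.972, 0.398 and 1.93 CPM, and was 2.28 ± 0.25 higher on the log2 scale in PVASCs than in Ab-ASCs (adjusted p = 9.21e-06).

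Among 5 tested genes of transport and binding, 2 were higher and 3 lower in both PVASCs and Ab-ASCs than in Sub-ASCs, and between PVASCs and Ab-ASCs 2 were higher, 1 lower and 2 not called. The 5, 5 and 3 genes called of 5 can be read against 70.4%, 75.3% and 56.9% of all genes. Lrp2, an endocytic receptor that takes up retinol-binding protein, had 0 to 6 reads in Sub-ASC, 81 to 83 in Ab-ASC and 59 to 65 in PVASC libraries. Scarb1, a lipoprotein receptor that also takes up carotenoids, was highest in Sub-ASCs, at 91.3 ± 5.06 CPM, with 29.8 ± 0.589 in Ab-ASCs and 42.5 ± 2.42 in PVASCs. Fabp5, which can carry retinoic acid to Ppard, differed by -0.37 ± 0.10 between PVASCs and Sub-ASCs (adjusted p = 0.00533).

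Of the 9 receptor genes listed, 8 were lower in PVASCs than in Sub-ASCs and none higher, where 35.7% of all genes tested were lower, and in Ab-ASCs 6 were lower than in Sub-ASCs and none higher, where 38.3% of all genes were lower. Rxra, a retinoid X receptor that partners retinoic acid receptors, was at 181 ± 5.64 CPM in Sub-ASCs, 77.8 ± 3.5 in Ab-ASCs and 72.9 ± 3.14 in PVASCs. Its log2 fold change was -1.31 ± 0.06 for PVASCs against Sub-ASCs (adjusted p = 4.87e-10) and -0.09 ± 0.06 against Ab-ASCs (adjusted p = 0.177). Rxrb, another such partner, varied less, at 39.4 ± 3.03, 42.1 ± 1.73 and 33.3 ± 1.17 CPM in Sub-ASCs, Ab-ASCs and PVASCs. Rarg, the most abundant of the retinoic acid receptors per length with 26.3, 17.7 and 25.0 FPKM in Sub-ASCs, Ab-ASCs and PVASCs, differed less than Rarb, with log2 fold changes of -0.23 ± 0.06, 0.28 ± 0.06 and -0.50 ± 0.06 in the same 3 comparisons, taken in the order used above. Rara, named here after its values were seen, had 6.61, 6.39 and 6.25 FPKM, and Rarb 0.247, 0.671 and 1.37, so that Rarb was the least abundant of the 3 receptors in every group. Rxrg had 12 to 28 reads in Sub-ASC and at most 4 in other libraries. The orphan receptors Rora and Rorb were highest in Sub-ASCs, at 79.0 and 6.75 CPM, with 27.0 and 0.636 in Ab-ASCs and 17.5 and 0.605 in PVASCs. Between PVASCs and Ab-ASCs, 2 receptor genes were higher, 4 lower and 3 not called, where 24.7% of all genes were higher and 32.1% lower. Markers that moved with the receptors and co-regulators were those of adipocytes, of which 6 of 6 tested were lower than in Sub-ASCs in both PVASCs and Ab-ASCs, and of stromal cells, 10 of 12 lower in both. Of macrophage and blood markers, 6 of 8 were lower in both. Their part in the receptor and co-regulator values was not tested.

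All 8 co-regulator genes were called in both comparisons with Sub-ASCs, with 1 higher and 7 lower in each, where 70.4% of all genes were called for PVASCs (35.7% lower) and 75.3% for Ab-ASCs (38.3% lower). Between PVASCs and Ab-ASCs, 2 were higher, 2 lower and 4 not called, where 56.9% of all genes were called. Ncor1, a corepressor, was lower than in Sub-ASCs, with log2 fold changes of -0.71 ± 0.10 in Ab-ASCs and -0.52 ± 0.09 in PVASCs. These were -0.78 ± 0.09 and -1.43 ± 0.09 for the coactivator Ncoa1, and -1.92 ± 0.13 and -1.56 ± 0.13 for Nrip1, a corepressor of nuclear receptors in adipocytes. The coactivators Ncoa3 and Ep300 were also lower, with log2 fold changes of -1.13 and -0.39 in Ab-ASCs and -1.18 and -0.30 in PVASCs.

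Known target genes went mostly the other way. Of 13 tested, 10 were higher and 3 lower in PVASCs than in Sub-ASCs (median log2 fold change 1.32), 9 were higher and 3 lower in Ab-ASCs than in Sub-ASCs (median 0.88), and 8 were higher and 2 lower in PVASCs than in Ab-ASCs (median 0.44), where 34.7%, 37.0% and 24.7% of all genes tested were higher. Rarres1, named for its induction by retinoids, had 7 to 10 reads in Sub-ASC, 25 to 29 in Ab-ASC and 925 to 1057 in PVASC libraries, a log2 fold change of 6.44 ± 0.12 for PVASCs against Sub-ASCs (adjusted p = 2.47e-13) and 4.63 ± 0.10 against Ab-ASCs (adjusted p = 1.05e-11). Rarres2, which encodes the adipokine chemerin, ran opposite to it, with 35853 to 42639 reads in Sub-ASC, 1243 to 1575 in Ab-ASC and 5 to 16 in PVASC libraries. Hoxa5, which can be induced by retinoic acid and marks position along the body, was at 6.30 ± 0.418 CPM in Sub-ASCs, 33.8 ± 2.2 in Ab-ASCs and 48.2 ± 4.18 in PVASCs. Tbx5, a heart and forelimb factor, had no read in any Ab-ASC library, and against a floor of 3 reads per library it was at least 104-fold higher in Sub-ASCs, at 14.8 ± 1.04 CPM, and at least 24.2-fold higher in PVASCs, at 3.45 ± 0.26 CPM. Rai14, named for its induction by retinoic acid, was higher by 1.51 ± 0.05 in PVASCs and 1.61 ± 0.05 in Ab-ASCs than in Sub-ASCs. Tgm2, a transglutaminase induced by retinoic acid in several cell types, was lower than in Sub-ASCs, with log2 fold changes of -0.96 ± 0.05 in PVASCs and -0.47 ± 0.05 in Ab-ASCs. Markers of other cell types moved with these genes. Against Sub-ASCs, 7 of 7 tested smooth muscle, 10 of 12 mesothelial and 7 of 9 endothelial markers were higher in PVASCs, and 8 of 9 endothelial markers were higher in PVASCs than in Ab-ASCs. In Ab-ASCs, 7 of 7 smooth muscle and 10 of 12 mesothelial markers were higher than in Sub-ASCs. Of the endothelial markers, 8 of 9 were lower there, where 38.3% of all genes were lower. Their part in the target gene values was not tested. Retinoic acid was neither added nor measured.

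Genes that followed each of the 9 most closely over the 9 libraries were found by the Euclidean distance between centred log2 CPM values, with 1 read added, among the 16525 other genes tested. The nearest to Aldh1a2 were Adcyap1r1, a neuropeptide receptor, at a distance of 0.379, Bdkrb2, a bradykinin receptor, at 0.447, and Ltbp2, which binds extracellular matrix, at 0.468, where Aldh1a2 itself spanned 5.02 between its lowest and highest library. Nearest to Aldh1a3 were Mmp10, a matrix metalloproteinase, at 0.364, Star, the steroidogenic cholesterol carrier, at 0.434, and the ligand gene Wnt2 at 0.673. Sh3d19 at 0.107 and Nucb1 at 0.173 followed Aldh1a1, which spanned only 1.60.

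Fat4, a large cadherin, was nearest to Rarb at 0.329, before Cd53 at 0.425 and Rapgef3 at 0.459. Adm, which encodes the vasodilator adrenomedullin, lay at 0.282 from Cyp26b1, with Capn5 at 0.380 and Mettl27 at 0.413. Abi3 at 0.481, the progenitor surface marker Cd34 at 0.734 and Cdh13 at 0.782 were nearest to Crabp1. For Rbp4, Crabp2 and Stra6 no gene came closer than 0.798, the nearest being Cd86, Orc1 and Btc. With 3 groups, any gene with a like order and size of steps comes close, so these distances describe likeness of pattern over 9 libraries only.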

How the data were processed

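Bulk mRNA sequencing of 9 libraries (Sub-ASC, Ab-ASC and PVASC, 3 each, grouped by the tissue in the labels) was used. The authors deposited raw counts per gene, without normalization, with gene length and position, and 0 columns of other samples were present. The submitters' processing notes name CASAVA 1.8, Bowtie 0.12.2, featureCounts 1.5.0-p3, mm8 and mm10, without their roles. Listed positions equalled GENCODE M21 on GRCm38 for 53585 of 54532 genes (98.3%), so coordinates are given on that build. The strand setting of the counting is not given in the sources used here. Libraries were made with a NEBNext Ultra kit from total RNA.

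Counts were analysed with edgeR 4.0.16 (limma 3.58.1, R 4.3.3). Genes were filtered by filterByExpr, libraries scaled by TMM, and all 9 libraries entered 1 quasi-likelihood fit without covariates, whose groups share a dispersion estimate. P-values were adjusted by Benjamini-Hochberg over 16526 genes. Standard errors were taken from the F statistic. The procedure was tested on simulated data in which a small set of genes was changed, in PVASCs only, with a common dispersion. Data in which most genes differ, or groups differ in spread, as here, were not simulated. CPM used TMM-scaled totals, and FPKM used raw totals and the listed length. Alternatives were RLE factors, DESeq2 1.42.0, no filter, at least 10 reads in every library, only the 2 groups compared, a replicate block, a log2 difference of 1 or more in either direction, TMM-scaled FPKM and leaving out each library. Tables and plots used Python 3.11.15, pandas 2.3.3, scipy 1.17.1 and matplotlib 3.10.9.

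The 9 genes and all lists were chosen with earlier results of these data known. Named beside the 9 were, in each role, the 4 pathway genes highest in mean FPKM and the 2 with the largest called change per comparison, the 3 most like genes of each of the 9 (1 whose symbol a spreadsheet had turned into a date is left out), the 3 most abundant genes of marker lists with those at or under 3 reads, and overlapping genes. Not every gene the rule covers is described. Some genes of the lists are counted but not reported by name here.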

Additional observations from a re-analysis of the deposited data

How the results depend on the processing

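The 9 genes kept their side of the threshold in 397 values under the alternatives, and no called difference changed direction. Crabp2 between PVASCs and Ab-ASCs, which was not called, ranged from -0.18 to 0.07 and was 0.05 without Ab-ASC replicate 1. A single call was lost, Aldh1a1 between PVASCs and Ab-ASCs with only these 2 groups fitted, at -0.17 with an adjusted p of 0.0531. With at least 10 reads in every library, Crabp2 and Stra6 were filtered out and gave no value, and Stra6 gave none between Ab-ASCs and Sub-ASCs with only these 2 groups fitted. Requiring a log2 difference of 1 or more in either direction left 5328 genes called for PVASCs against Sub-ASCs, 2551 for PVASCs against Ab-ASCs and 6241 for Ab-ASCs against Sub-ASCs, and 29, 9 and 26 of the other pathway genes. Of the other pathway genes' fold changes under alternatives, 2212 kept their side, 37 lost and 10 gained a call. TMM scaling moved 12 of 27 mean FPKM values by more than their SD, for example Aldh1a2 to 274 in Ab-ASCs and 83.0 in PVASCs. Same-numbered libraries of different groups did not deviate together (correlations of -0.0416 to 0.075), so the numbers are not taken as pairs. With a replicate block, 11458, 9183 and 12302 genes were called, with 9, 8 and 9 of the 9 genes and 45, 31 and 45 of the others, and no call on the 9 genes changed. Depth limits Stra6, Crabp2 and Cyp26 family values, which rest on few reads in at least 1 group.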
